A study of Homo sapiens with 2 samples.

Results

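Chromatin bound by TCF4 at the immunoglobulin heavy-chain locus was described from the 7 peaks that carry the gene name IGH@ or IGHM, beside 655 other listed peaks, 275 gene names in all. Members were chosen by name alone: 5 rows were named IGH@, the name of the whole locus, and 2 were named IGHM, the constant gene of IgM. SU-DHL-2 is a cell line established from diffuse large B-cell lymphoma of the activated B-cell-like type, without a copy gain of TCF4, and it carried a tetracycline-inducible TCF4. Cells received doxycycline at 60 ng/ml for 24 hours, so TCF4 was overexpressed in both libraries. The series holds 1 chromatin immunoprecipitation (ChIP) library made with a TCF4 antibody and 1 input library of whole-cell extract, and no library of cells without induction was used here. Nothing was replicated, so every interval given, at 95%, measures the error of counting alone and treats each read as an independent molecule, which it may not be. The list is limited to genes of a TCF4 signature and is not genome-wide. Both names were marked Up in that signature, as were 229 of the 275 genes, and what Up is relative to is not stated.

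TCF4, also called E2-2, belongs to the E-proteins, transcription factors with a basic helix-loop-helix domain. They bind DNA as dimers at E-box motifs, and E-boxes are a known feature of the heavy-chain intronic enhancer, which lies between the joining segments and the first constant gene. The heavy-chain locus encodes the antibody heavy chain: variable, diversity and joining segments are joined in developing B cells, and class switching later replaces the first constant gene with one further downstream. In humans, constant genes lie in duplicated blocks, and enhancer clusters known as 3′ regulatory regions follow the IGHA1 and IGHA2 genes. A RefSeq gene table of another build (GRCh38.p14), used for names and order only, lists 11 constant genes and pseudogenes in the order IGHM, IGHD, IGHG3, IGHG1, IGHEP1, IGHA1, IGHGP, IGHG2, IGHG4, IGHE and IGHA2, of which IGHEP1 and IGHGP are the 2 pseudogenes. The hg19 positions of these genes and of the regulatory regions were not used here, so peaks are placed against the authors' annotated interval and against each other, and not against a constant gene or enhancer.

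All 7 peaks lay within 1 annotated interval of 277.2 kb on chromosome 14, from 106053225 to 106330469 (hg19), recovered from the authors' distances to its start and end. The start is the end with the higher coordinate, so the interval runs towards lower coordinates, and peaks were numbered 1 to 7 in that direction. Peak 1 (IGH@) was at 106328099 to 106328599, 2.09 kb inside the start. It was not marked as a promoter peak, a mark that the authors' table gave to peaks up to 1.99 kb from a start site. Peak 2 (IGH@) was at 106232378 to 106234223, 96.99 kb from the start, and peak 3 (IGH@) at 106204233 to 106206496, 125.0 kb from it. Both IGHM peaks came next, peak 4 at 106153242 to 106153908 and peak 5 at 106131653 to 106133280. They lay 176.9 and 198.0 kb from the start, or 63.8% and 71.4% of the way along the interval. Peak 6 (IGH@) was at 106106895 to 106108207 and peak 7 (IGH@) at 106088387 to 106089513, the latter 35.7 kb before the end of the interval. The peaks named IGHM thus lay between peaks named IGH@ on both sides and shared their interval, whereas IGHM is the first constant gene in the reference order. All rows carried the annotation "within" and no accession.

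The peaks were unevenly spaced. Centre-to-centre distances between neighbours, from peak 1 onwards, were 95.05, 27.9, 51.8, 21.1, 24.9 and 18.6 kb. The stretch between peaks 1 and 2 was thus 1.84 times as long as the next longest, between peaks 3 and 4, and 93.9 kb of it, from edge to edge, held no listed peak. The 6 peaks beyond it lay 34.98% to 87.1% of the way along the interval, and the 4 peaks from 4 to 7 were each 18.6 to 24.9 kb from the next. Together the peaks covered 9339 bp, 3.37% of the interval. The table lists peaks above the authors' thresholds and only for genes of the TCF4 signature. A stretch with no listed peak can thus still hold weaker signal, or a peak given another gene name. Within this limited list, the next peak on the chromosome, assigned to ERH, was 36.3 Mb away.

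**Figure D1:**
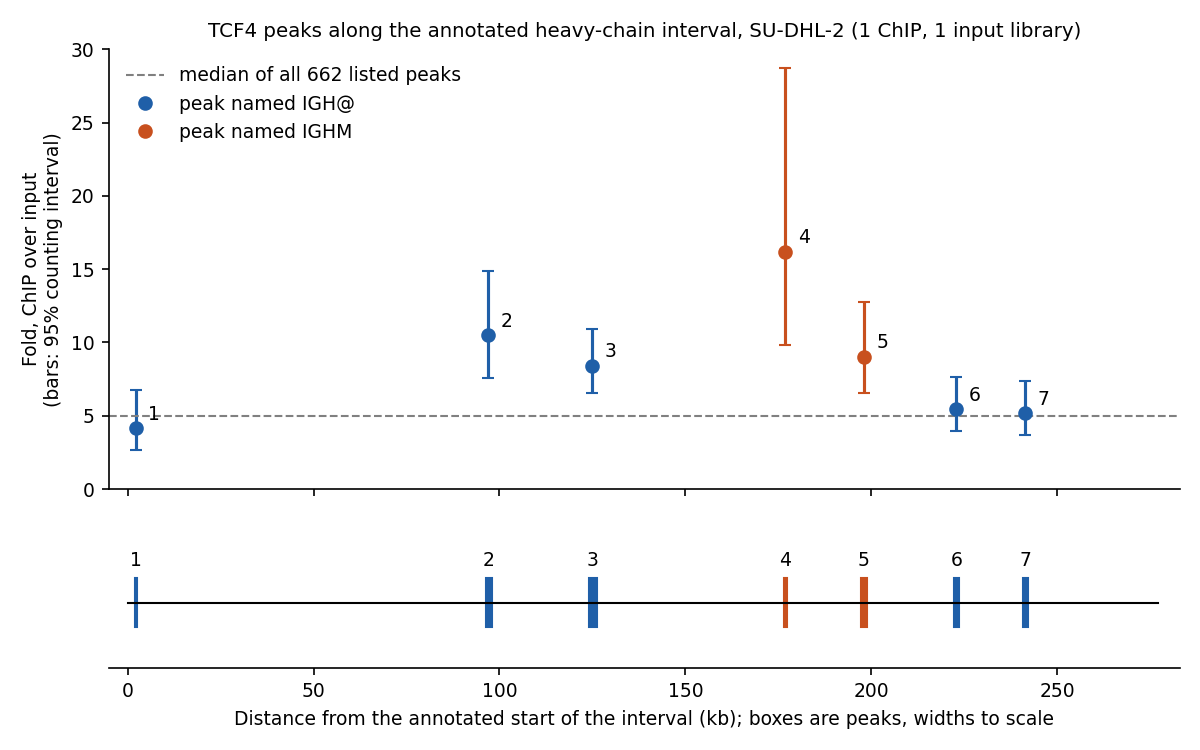
The upper panel plots the fold of ChIP over input reads of each heavy-chain peak (points, with 95% counting intervals) against its distance in kb from the annotated start of the interval, and the lower panel draws the peaks to scale along the 277.2 kb interval. Peaks 2 to 5, between 96.99 and 198.0 kb, reached 8.42-fold or more, and peaks 1, 6 and 7 at the flanks lay between 4.14-fold and 5.46-fold, near the dashed line at the median of all listed peaks (5.01-fold).

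Every heavy-chain peak was enriched over input, but a list of called peaks fixes this in advance: the lowest fold of all listed peaks was 3.75. The 4 highest folds of the locus were those of the middle peaks (2 to 5). The 3 lowest were those of the flanking ones (1, 6 and 7), a split that was drawn after the folds were seen. Peak 1 held 110 ChIP reads and 24 input reads, a fold of 4.14 (interval 2.64 to 6.73) after scaling for library size. Peak 2 held 465 and 40, a fold of 10.5 (7.59 to 14.9), and peak 3 held 653 and 70, a fold of 8.42 (6.57 to 10.9). The 653 ChIP reads and the 70 input reads of peak 3 were each the highest in the list, and this peak was also the widest.

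Peak 4 held 287 ChIP reads and only 16 input reads, a fold of 16.2 (9.80 to 28.7), the highest of the locus and the tenth highest in the list. Peak 5 held 410 and 41, a fold of 9.03 (6.54 to 12.8). Peak 6 held 272 and 45, a fold of 5.46 (3.97 to 7.66), and peak 7 held 240 and 42, a fold of 5.16 (3.70 to 7.34). Of these 4 peaks, the 2 named IGHM had the higher folds and the 2 named IGH@ the lower ones. The interval of peak 4 did not overlap those of peaks 6 and 7, whereas the interval of peak 5 overlapped both. Over the whole locus the folds did not follow the names: peak 2, named IGH@, had a higher fold (10.5) than peak 5.

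Summed over the locus, 2437 ChIP and 278 input reads gave a fold of 7.91 (6.99 to 8.99), against 5.54 (5.43 to 5.65) for the other 655 listed peaks. The locus was 1.06% of the listed peaks and held 3.35% of their ChIP reads and 2.37% of their input reads. A fold of at least 4 was reached by all 7 and by 89.4% of all listed peaks. A fold of at least 8 was reached by 4 of the 7 heavy-chain peaks and by 12.2% of all listed, and a fold of at least 10 by 2 of the 7 and by 4.98% of all. The median fold was 8.42 in the locus and 5.01 over all listed peaks. These values describe the list: peaks of 1 library are not replicates, so no test against the other peaks was made.

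The folds of the heavy-chain peaks were compared with each other in all 21 pairs by Fisher's exact test (two-sided) on ChIP and input reads, with Benjamini-Hochberg adjustment over the pairs. Such a test compares reads of these 2 libraries, not conditions, and pairs that share a peak are not independent. The folds differed in 11 pairs. Peak 4 was enriched 3.91 times as much as peak 1 (interval 1.91 to 8.18, adjusted p = 0.00152 by Fisher's exact test), 3.14 times as much as peak 7 (1.68 to 6.13, adjusted p = 0.00152) and 2.97 times as much as peak 6 (1.60 to 5.76, adjusted p = 0.00156). It also exceeded peak 3 by 1.92 times (1.08 to 3.61, adjusted p = 0.0446 by Fisher's exact test).

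Peak 4 was not separated from its other middle neighbours. Its fold was 1.54 times that of peak 2 (0.827 to 3.01, adjusted p = 0.276, Fisher's exact test) and 1.79 times that of peak 5 (0.962 to 3.49, adjusted p = 0.1). Peaks 2, 3 and 5 did not pass the test against each other, with ratios of 1.25 (0.817 to 1.92) for peak 2 over 3, 1.16 (0.718 to 1.88) for 2 over 5 and 1.07 (0.704 to 1.65) for 5 over 3. Nor did the flanking peaks 1, 6 and 7, where the ratio was 1.32 (0.731 to 2.33) for peak 6 over 1, 1.25 (0.686 to 2.23) for 7 over 1 and 1.06 (0.653 to 1.71) for 6 over 7. These intervals leave room for differences of up to about the size of those called, so the peaks of a group are not shown to be alike. Peak 2 exceeded peak 6 by 1.92 times (1.19 to 3.10) and peak 7 by 2.03 times (1.25 to 3.31), both past the threshold. The pairs of peak 6 with peaks 3 and 5 missed it, at adjusted p = 0.0659 and 0.0629 by Fisher's exact test. With Bonferroni adjustment 4 pairs passed, those of peak 4 with peaks 1, 6 and 7 and of peak 2 with peak 1, and with every read count halved 0 pairs passed, so the calls depend on each read counting once.

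Reads per kb of peak, which divide the reads by the called width, were compared in each library separately. A wide call can take in lower flanks, so these densities still depend on where the peak borders were set. Peak 4 had the highest ChIP density, 430.9 reads per kb (Poisson interval 382.5 to 483.8), and the other 6 peaks ranged from 207.3 at peak 6 to 288.6 at peak 3, against a median of 196.2 over all listed peaks. ChIP density differed in 12 of the 21 pairs by an exact conditional binomial test with Benjamini-Hochberg adjustment. Peak 4 exceeded each of the other 6, by 1.49 times for peak 3 (1.30 to 1.72, adjusted p = 1.29e-07 by this exact test) to 2.08 times for peak 6 (1.76 to 2.46, adjusted p = 2.38e-16). The excess at peak 4 was thus present in the ChIP reads alone, without reference to its 16 input reads. Peak 4 was called 666 bp wide, and the others, except peak 1 (500 bp), were called at 1126 bp or more. The part of the borders in this excess was not tested.

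Input density ran from 21.7 reads per kb at peak 2 (15.5 to 29.5) to 48.0 at peak 1 (30.8 to 71.4), on both sides of the median of 34.9 over all listed peaks. Input DNA was therefore present at every heavy-chain peak. By the exact conditional binomial test 0 of the 21 pairs differed in input density after Benjamini-Hochberg or Bonferroni adjustment, and 5 pairs had an unadjusted p below 0.05. Peak 1, with the lowest fold, did not have the lowest ChIP density: its 220.0 reads per kb (180.8 to 265.2) lay above those of peaks 6 and 7, without passing the test against either. Compared with peak 2, its ChIP density was lower by a ratio of 0.873 (0.703 to 1.08, adjusted p = 0.274, exact test), while its input density was 2.21 times as high (1.28 to 3.76, adjusted p = 0.068). Heavy-chain constant genes are near-identical in places, and the handling of reads that match more than 1 of them is not stated. Its part in the ChIP and input counts was not tested, and neither was that of rearrangement or copy number of the locus in these cells.

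**Figure D2:**
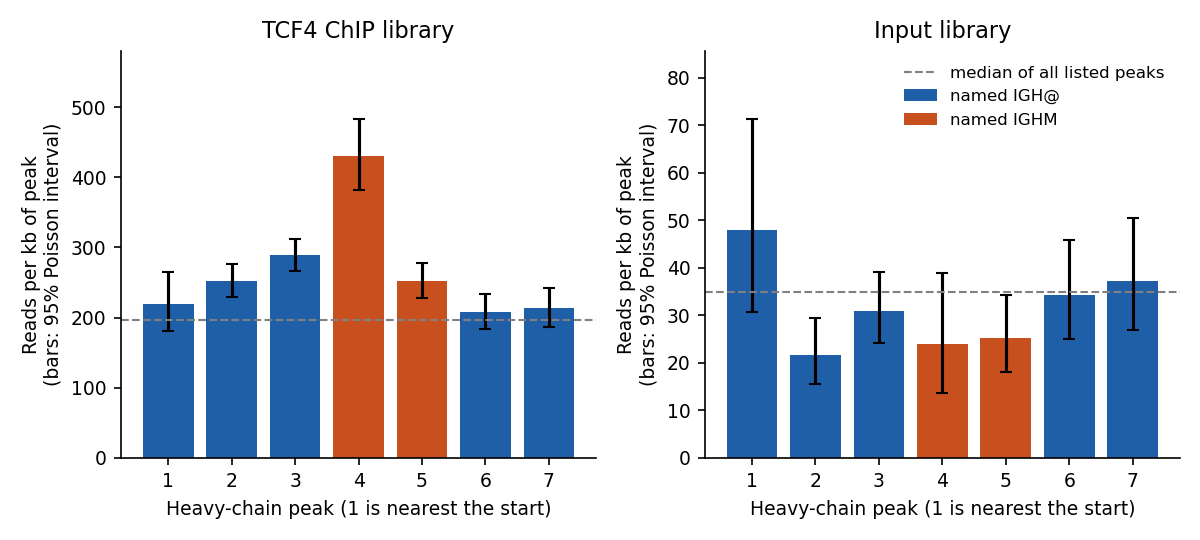
Bars give reads per kb of peak in the TCF4 ChIP library (left) and the input library (right) for heavy-chain peaks 1 to 7, with 95% Poisson intervals, and the dashed line is the median of all listed peaks. In the ChIP library peak 4 stands at 430.9 reads per kb above all others, whereas in the input library the intervals of most peaks overlap and the highest bar is that of peak 1, at 48.0.

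The shape of the peaks also varied. Widths were 500 bp for peak 1, 1845 bp for peak 2, 2263 bp for peak 3, 666 bp for peak 4, 1627 bp for peak 5, 1312 bp for peak 6 and 1126 bp for peak 7. The apex (the highest point) and the centre of gravity of the reads nearly coincided in the narrow peaks, 26 bp apart in peak 1 and 14 bp in peak 4, where the median over all listed peaks was 16 bp. In peak 4 the apex was at 106153604, close to the middle of the peak. In all 5 wide peaks the apex and the centre of gravity were further apart than in these 2. The distance was 52 bp in peak 6, 149 bp in peak 2, 242 bp in peak 3, 308 bp in peak 7 and 558 bp in peak 5. In the 13 other listed peaks at least 1 kb wide the median distance was 73 bp and the longest 381 bp, so only peak 5 lay beyond their range.

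Peak 5 had the longest such distance of all listed peaks, with its apex at 106131896 and its centre of gravity at 106132454. This was 34.3% of its width (rank 5 in the list), and for peak 7, with the apex at 106089269, it was 27.3% (rank 11). Relative to width, the distances of peaks 2 and 3 were 8.08% and 10.7% (ranks 147 and 88). The median was 6.05% in the 13 other listed peaks at least 1 kb wide. In 6 of the 7 peaks the apex lay on the side of the annotated start, and in peak 5 it lay on the other side. In peaks 1, 4 and 6 the distance was only 26, 14 and 52 bp. The share of each side over all listed peaks was not computed. The table gives 1 apex a peak and no profile, so whether a wide peak holds several summits was not tested.

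**Figure D3:**
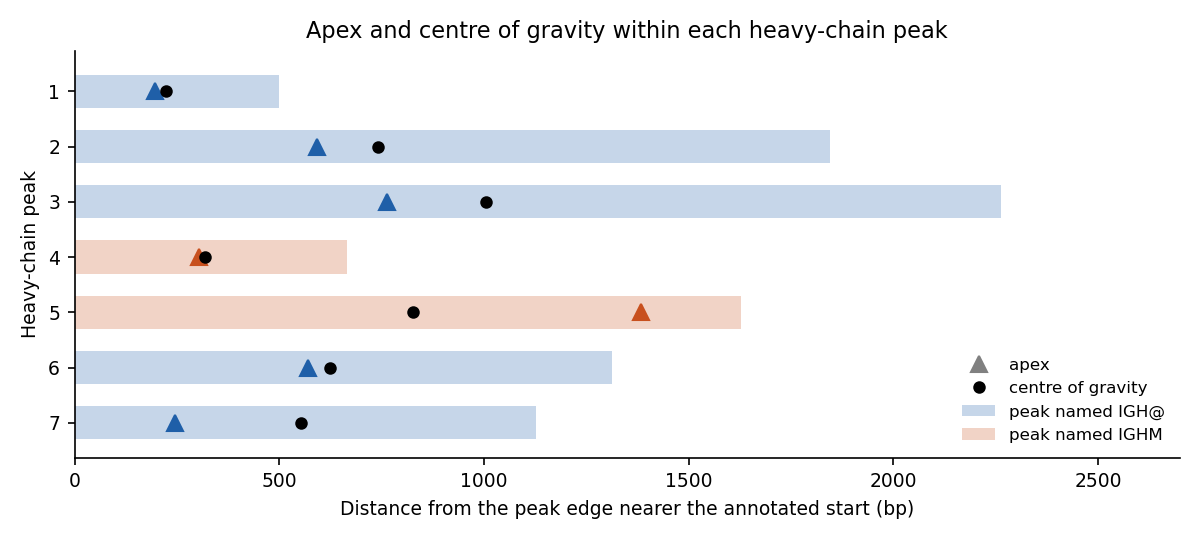
Each bar is a heavy-chain peak drawn to its width in bp from the edge nearer the annotated start, with the apex as a triangle and the centre of gravity as a black dot. The dots sit near the middle of every bar, and the triangles of peaks 5 and 7 stand 558 and 308 bp away from them, in opposite directions.

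Most heavy-chain peaks ranked higher in the list by width than by read density. A width of at least 1 kb was reached by 5 of the 7 (71.4%) and by 13 of the other 655 listed peaks (1.98%), and peaks 3, 2 and 5 were the first, the second and the third by width. By ChIP reads per kb the same peaks ranked 102, 166 and 167, and the highest rank of the locus was 17, for peak 4. The 13 other wide peaks, each of a different gene, had a summed fold of 6.93 (6.31 to 7.63), and the 5 wide heavy-chain peaks 7.74 (6.76 to 8.89), intervals that overlap. Of the single peaks in this group, that of ITGAX, the gene of the integrin CD11c, was closest in width to peak 5, at 1583 bp with a fold of 9.78, and that of SUSD3 had the highest fold, 14.6 (9.58 to 23.3).

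The authors deposited a −log10 p named local, and what it was measured against is not stated. This local value was low at most of the wide heavy-chain peaks. It was 2.57 at peaks 2, 3 and 6 and 2.03 at peak 7, a value shared by 21 rows and the lowest in the table. At peak 5 it was 3.84, at peak 4 4.97 and at peak 1 6.24. Peak 1, with the lowest fold of the locus, thus had the highest local value (rank 47 in the list), and peaks 2 and 3, with folds above 8, shared rank 575. In 4 of the 5 wide heavy-chain peaks the value was below that of every other wide peak, which ran from 3.17 to 5.80. A local value of at least 3 was reached by 3 of the 7 heavy-chain peaks and by 81.3% of all listed peaks. The other deposited −log10 p, with the header word distr, was infinite for all 7, as for 292 rows in all, and does not order them. What it was measured against is not stated either.

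**Figure D4:**
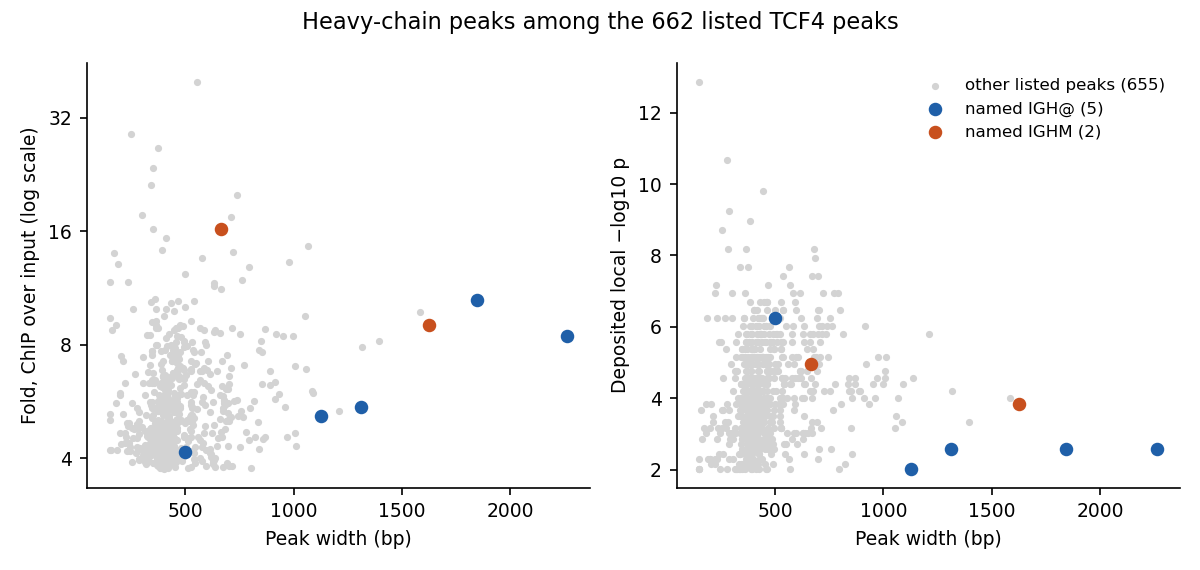
Both panels plot all listed peaks by width in bp, with fold of ChIP over input on a log axis (left) and the deposited local −log10 p (right). Heavy-chain peaks (large points, blue for IGH@ and orange for IGHM) extend to 2263 bp, beyond all other peaks in width, with folds of 4.14 to 16.2, and 4 of them lie along the lower edge of the right panel at 2.03 to 2.57.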

How the data were processed

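The deposited file is 1 peak table. Per the file headers, the authors' values are read counts per peak for TCF4 and for a column named IC, taken as the input, the only other library. Also deposited are log2 ratios, a normalized signal, −log10 p-values of 2 kinds, positions, and distances to the assigned transcript. BWA, GATK and hg19 are named in the submitters' processing notes, and the sources used here do not give the peak caller. Whether coordinates count from 0 or 1 is not stated. The deposited signal equalled reads per kb of peak over 1 constant per library, 93.5 for ChIP and 84.4 for input (library size in M reads, if the unit is RPKM). Spike-in chromatin was added, and whether the constants use it is not stated.

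Fold is ChIP over input reads times the ratio of these constants (0.903), with an exact Clopper-Pearson interval. For 1 peak of the list with no input read a floor of 3 reads was used. Read densities carry exact Poisson intervals. Folds of 2 peaks were compared by Fisher's exact test and densities by an exact conditional binomial test, each adjusted over 21 pairs, with a threshold of 0.05. The fold interval and Fisher's exact test were tried on simulated independent reads, and the density test only on a known answer. Such reads cannot show how the tests behave where reads are not independent. Distances of the 7 rows agree on 1 interval only when taken from the centre of gravity. Members, limits and comparisons were chosen with earlier results of these data known, and all rows named IGH@ or IGHM were described. Alternatives were scaling, a pseudocount of 1, other limits, other adjustment, halved counts and leaving out each peak. Python 3.11.15, pandas 2.3.3, numpy 2.4.6, scipy 1.17.1 and matplotlib 3.10.9 were used.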

Additional observations from a re-analysis of the deposited data

How the results depend on the processing

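Without scaling, or with 1 read added to both counts, the fold of each of the 7 peaks stayed within its counting interval. Neither change could move a fold far. Leaving out the scaling raises every listed fold by the same factor, and 1 read is little beside counts of 16 or more. Under both settings 4 peaks still reached 8-fold. The share of all listed peaks that did so was 12.2% in the main setting and was not computed for these 2. Leaving out each peak in turn gave summed folds of 7.41 to 8.40, and the median of the 7 folds was 8.42. The 3 peaks with a local −log10 p of at least 3 gave 8.99, at the upper limit of the interval of the main value. A limit of 4-fold was passed by 7 peaks (89.4% of all listed) and one of 10-fold by 2 (4.98% of all listed). Of the 11 pairs that differed in fold, 4 passed with Bonferroni adjustment and 0 with halved counts, which leave fewer reads by construction. ChIP density differed in 8 pairs under each of these settings, chosen after seeing the data, and input density in 0. The median spacing was 26.4 kb between centres, 26.1 kb between apices and 24.7 kb from edge to edge, less by the peaks' own widths. The median rank of the 7 peaks was 17 by ChIP reads, 7 by width, 49 by scaled log2 ratio, 167 by ChIP reads per kb and 575 by local −log10 p. The fold of peak 4 rests on 16 input reads, which sets the width of its interval. No paired analysis was possible because each group has 1 library.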

Other observations

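The 7 heavy-chain rows were written differently from the rest of the deposited table. Their scaled log2 ratios carry 13 or 14 decimals, and no other row carries more than 9. In the other 655 rows the distance to the start site is not a whole number exactly where the peak width is odd, which is what a distance from the midpoint gives. For all 75 accessions with several peaks within the transcript, such midpoint distances recovered a single start site. Of the heavy-chain rows, 3 have an odd width and 0 have a distance that is not a whole number. Measured from the midpoint they would give 7 different start sites spread over 193 bp, and measured from the centre of gravity they give 1. These rows are also the only 7 without an accession.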
